A study of Mus musculus with 14 samples.

Results

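The regions described here are places in the genome of mouse embryonic stem cells that lost accessibility after protein synthesis was inhibited and that lie outside annotated genes. Cells of the mouse embryonic stem line E14 were grown in medium with serum and LIF, the cytokine that holds such cells in self-renewal, and were treated for 3 hours with DMSO (4 control libraries) or with cycloheximide at 1 µg/ml (4 libraries). ATAC-seq, which tags open DNA with a transposase, measured accessibility. All samples come from this 1 line with no genetic change named in the labels, and nothing in the labels says whether the replicates were separate cultures. The authors' comparison left 1188 regions, 734 gained and 454 lost. Members were selected from the lost list by position, as every lost region whose centre lay within no RefSeq gene span of any biotype, which gave 218 of the 454 lost regions (48.0%, Wilson 95% interval 43.5% to 52.6%). The same rule applied to the gained list gave 475 of 734 regions (64.7%, interval 61.2% to 68.1%). Coordinates and widths are those of the authors' deposited table, whose lists give positions with no height, fold change or read count, so that depth, the size of each loss and the spread between libraries are unknown. Loss of accessibility is therefore what chose the members and is not tested, and the comparisons with gained regions below are descriptions without a test. The intervals cover the counting of regions only.

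Accessible DNA outside genes includes promoters just beyond a gene's start and enhancers, short stretches bound by transcription factors that act on genes near or far along the chromosome. In embryonic stem cells many enhancers are bound by the pluripotency factors Pou5f1 (Oct4), Sox2 and Nanog, together with factors such as Klf4, Klf5, Esrrb and Prdm14 that hold the naive state. Cycloheximide stops the ribosome during elongation, so that proteins with a short life fall in level soon after it is added. Several stem cell regulators, Myc among them, are known to be such proteins.

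Of the members, 3 overlapped a window of the RefSeq promoter table, here the 250 bp before and 50 bp after a transcript's start. The table does not hold every gene, so that this count covers only the genes in it, and Adprh and Spink1, both close to members, are not among them. The 3 members are shown because part of their own DNA, next to a start site, is in the reference sequences used here. The 250 bp before each start are shown 5′ to 3′ along the gene's strand (RefSeq, GRCm38.p6), with matches to a searched motif in capitals. The Ccnb1ip1 window is chr14:50795729-50795978 on the minus strand, the Gm42308 window chr4:83511290-83511539 on the minus strand, and the Gm33596 window chr17:80809435-80809684 on the minus strand.

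Ccnb1ip1: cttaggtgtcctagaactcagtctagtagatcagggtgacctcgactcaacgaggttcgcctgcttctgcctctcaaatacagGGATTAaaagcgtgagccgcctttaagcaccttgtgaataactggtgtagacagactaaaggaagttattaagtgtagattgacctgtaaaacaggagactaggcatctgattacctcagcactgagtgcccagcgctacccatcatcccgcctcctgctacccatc

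Gm42308: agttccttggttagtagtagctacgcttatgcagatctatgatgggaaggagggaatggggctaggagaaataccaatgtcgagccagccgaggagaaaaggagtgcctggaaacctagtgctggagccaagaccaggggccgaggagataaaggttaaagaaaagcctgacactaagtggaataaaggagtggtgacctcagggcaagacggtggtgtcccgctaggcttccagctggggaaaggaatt

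Gm33596: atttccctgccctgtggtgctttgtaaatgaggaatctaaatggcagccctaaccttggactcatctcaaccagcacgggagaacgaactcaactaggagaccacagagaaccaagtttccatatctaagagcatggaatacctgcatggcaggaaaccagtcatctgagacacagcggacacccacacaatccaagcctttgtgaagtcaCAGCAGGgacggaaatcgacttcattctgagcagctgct

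The lost region at Ccnb1ip1, a gene for a ubiquitin ligase of the cyclin B and meiotic crossover pathways, ran from 50795663 to 50796181 on chromosome 14 and held all 300 bases of the promoter window. At Gm42308, a long non-coding RNA gene, the region from 83511105 to 83511548 on chromosome 4 also held all 300. The region at Gm33596, another long non-coding RNA gene, ran from 80809335 to 80809638 on chromosome 17 and held 254 of the 300. All 3 sequences were near the middle of the range in CpG, with 7 CpG at Ccnb1ip1, 6 at Gm42308 and 5 at Gm33596, against a median of 6 and quartiles of 2 and 16 over 32851 promoter windows. Their GC content was 48.8%, 51.6% and 49.2% in the same order, against a median of 52.4%. A search on both strands for 16 motifs found 2 matches in all. The letters GGATTA, the core of sites for OTX homeodomain factors, occurred in the Ccnb1ip1 sequence and in 6.25% of all promoter windows. The letters CAGCAGG, from the site of ZIC zinc finger factors, occurred in the Gm33596 sequence and in 8.44% of all windows. The octamer ATGCAAAT of POU factors, found in 1.6% of all windows, was in none of the 3, nor were the SOX letters CATTGTT (3.29%), the KLF letters GGGTGTGG (3.20%), the ESRRB letters TCAAGGTCA (0.387%) or the STAT letters TTCCNGGAA (0.913%).

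A small share of members lay beside genes of the stem cell programme. Of 53 listed pluripotency genes, 9 (17.0%) had a member within 100 kb as a neighbour with no other protein-coding gene between, against 211 of 21887 protein-coding genes (0.964%). Gained regions outside genes lay beside 0 of the 53 listed genes and beside 310 of all protein-coding genes (1.42%). Accessible regions that did not change are not in the lists. How often accessible regions of these cells in general lie beside the listed genes is therefore unknown. The 9 genes are Zfp42, Dppa2, Dppa4, Klf5, Foxd3, Myc, Prdm14, Dppa3 and Nanog. They were reached by 9 of the 218 members (4.13%), since 2 members lay beside Zfp42 and 2 beside Myc, while 1 member lay between Dppa4 and Dppa2 and 1 between Dppa3 and Nanog. All 9 members lay within 50 kb of the gene. Earlier results of these data had already named 6 of the listed genes, so that the list is not independent of the result. Among the other 47 genes, 5 had a member beside them (10.6%), and these were Dppa3, Dppa4, Foxd3, Nanog and Prdm14. This count is not free of the genes left out, since the member beside Dppa4 is the one that also lay beside Dppa2. Dppa3 and Nanog share 1 member. Listed genes have more room around them than most. The median listed pluripotency gene was flanked by 88.1 kb of sequence outside genes within the window, against 32.5 kb for the median protein-coding gene. Per Mb of such sequence there were 2.53 pairs of member and neighbouring gene for the list and 0.197 for all protein-coding genes.

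**Figure D1:**
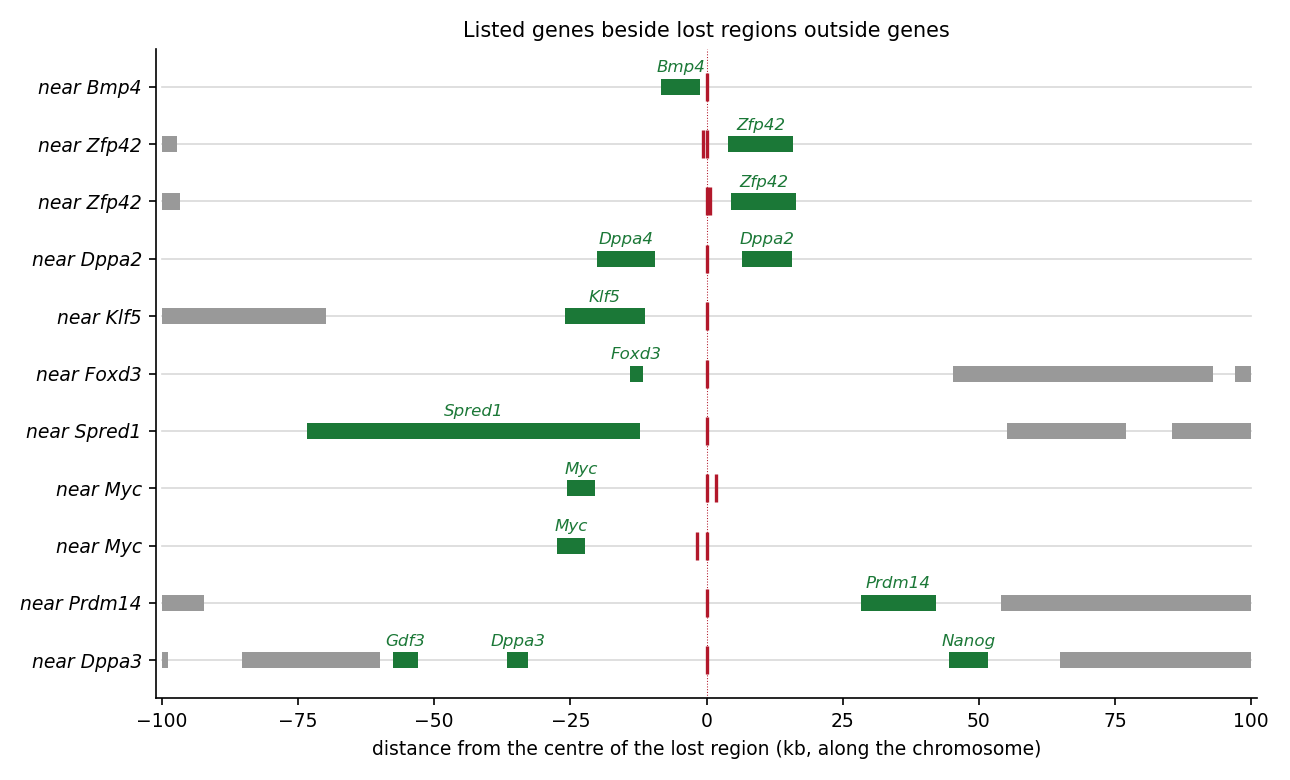
Protein-coding genes within 100 kb of the 11 lost regions that lie beside a listed gene, one row for each region, with distance along the chromosome in kb from the region's centre. Red ticks are lost regions outside genes, green bars are genes of the lists and grey bars are other protein-coding genes. The region beside Bmp4 lies 1203 bp from the gene and those beside Myc lie over 20 kb away.

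The regions closest to a pluripotency gene were a pair near Zfp42 (Rex1), a zinc finger gene widely used as a mark of the naive state. They are chr8:43290498-43290637 and chr8:43290993-43291260, with widths of 140 and 268 bp, and the gap between them was 355 bp. Both lay on the 3′ side of the gene, with centres 4500 and 3941 bp from its boundary. The 140 bp region is the third narrowest of the members.

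Dppa2 and Dppa4, neighbours that encode partner proteins with DNA-binding SAP domains and that help switch on genes of the early embryo, had 1 member between them. It is chr16:48303489-48304048, 560 bp wide, 6506 bp from Dppa2 and 9476 bp from Dppa4. A second pair, Dppa3 (Stella, which guards maternal DNA methylation) and Nanog (a homeodomain factor of the core network), lay on either side of chr6:122662613-122663397. That region was 785 bp wide, 32734 bp from Dppa3 and 44484 bp from Nanog, on the 5′ side of Nanog. Gdf3, a TGF-beta family ligand on the far side of Dppa3, was 52918 bp away.

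Klf5 encodes a Krüppel-like factor that can stand in for its relatives Klf2 and Klf4 in keeping stem cells undifferentiated. Its neighbouring member, chr14:99324281-99325211, was 931 bp wide and lay 11334 bp from the gene, with Klf12 on its other side at 541435 bp. The member beside Foxd3, a forkhead factor needed to maintain pluripotent cells, was chr4:99670149-99670637. It was 489 bp wide and lay 11722 bp from the gene on its 3′ side. Prdm14 encodes a PR-domain protein that represses FGF receptor signalling and DNA methylation in naive cells. Its neighbour was chr1:13084782-13085444, 663 bp wide and 28315 bp from the gene.

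Beside Myc, the proto-oncogene whose protein drives growth and proliferation, lay chr15:62010570-62011229 and chr15:62012594-62012855, with widths of 660 and 262 bp. Their centres were 20538 and 22363 bp from the gene, and the gap between them was 1364 bp. On their other side the next protein-coding gene was Gsdmc, 1765072 and 1763247 bp away.

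Other core genes had no member close by. The nearest member was 13023901 bp from Sox2 and 8998630 bp from Esrrb. It was 4335136 bp from Pou5f1, but a lost region that is no member, since it lies inside a gene, had its centre within the span of Pou5f1 itself. For Klf4 the nearest member, and the nearest lost region of any kind, was 14094163 bp away, and a gained region had its centre within the gene. With neighbours in any position counted, inside a gene or with another gene between, 11 of the 53 pluripotency genes had a member within 100 kb, against 1.70% of all protein-coding genes. Lost regions of any kind reached 16 of the 53 and 3.74% of all protein-coding genes, and gained regions of any kind reached 2 of the 53 and 5.18% of all. Dnmt3b, the de novo DNA methyltransferase, and Gdf3 make up the difference between 11 and 9, since another gene lay between them and the member.

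The other lists held 0 or 1 gene with a member beside it, counts too small to set apart from the 0.964% of all protein-coding genes. Of 24 genes of the NODAL and BMP pathway, 1 had a member beside it (4.17%), namely Bmp4, the ligand that acts with LIF to hold stem cells in serum. The region chr14:46391650-46392095 was 446 bp wide and lay 1203 bp from Bmp4 on its 5′ side, the shortest distance to any listed gene. In the same list 1 gained region lay outside genes beside Id2, a target of BMP signalling, at 689 bp. Of 20 FGF and ERK genes, 1 had a member beside it (5.00%). This was Spred1, an inhibitor of the RAS and ERK cascade, with chr2:117194258-117194681 at 12190 bp on its 3′ side, and 1 gained region lay beside Spry2, another inhibitor of that cascade, at 36758 bp. The count was 0 of 14 for the LIF and STAT3 pathway, 0 of 26 for the WNT pathway, 0 of 35 for lineage regulators and 0 of 27 for chromatin remodelers and acetyltransferases. In the last 2 lists a gained region outside genes lay beside 1 gene each, Evx1 (2.86%) and Hdac2 (3.7%). Among 20 immediate early genes, Myc alone had members beside it.

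A few more genes near members were picked out with their values in view and belong to no list. Pramel6, which is expressed in naive stem cells and the early embryo, lay between a pair of members. One, chr2:87502269-87502484, was 4189 bp from it on the 5′ side and 9958 bp from its relative Pramel7. The other, chr2:87515611-87516150, was 5015 bp from it on the 3′ side. Lncenc1, a long non-coding RNA gene of naive embryonic stem cells, was 2169 bp from chr13:97432577-97433025. Kitl, the ligand of the KIT receptor, was 10857 bp from chr10:100111064-100111483, and Sox11, a neural SOX factor, was 13291 bp from chr12:27320862-27321092.

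Members lay nearer to genes than gained regions outside genes did. The median distance from the centre of a member to the nearest boundary of a protein-coding gene was 41313 bp (95% interval of the median 29430 to 65014 bp, n = 218), and for gained regions outside genes it was 113335 bp (81765 to 136806 bp, n = 475). Counting genes of any biotype, the medians were 12573 bp (10114 to 16851 bp) and 29849 bp (25221 to 35661 bp). The intervals of the 2 lists did not overlap in either case. Within 1 kb of a protein-coding gene the shares overlapped in their intervals, with 4 members (1.83%, Wilson interval 0.716% to 4.62%) and 11 gained regions (2.32%, 1.30% to 4.10%). Within 10 kb there were 49 members (22.5%) and 44 gained regions (9.26%), and within 100 kb 142 members (65.1%) and 231 gained regions (48.6%).

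**Figure D2:**
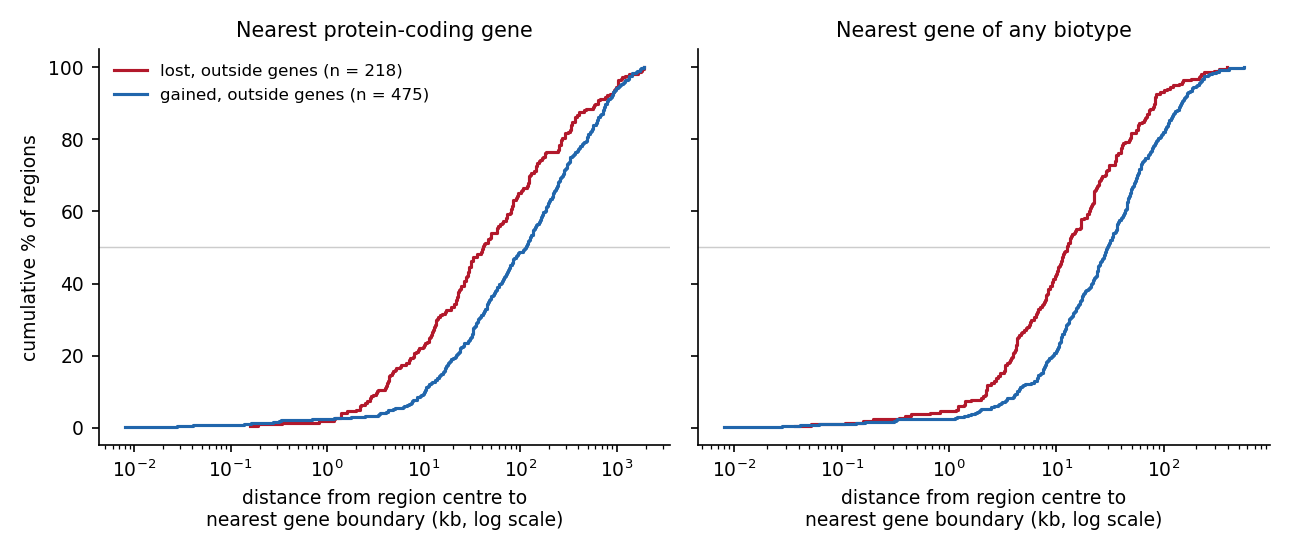
Cumulative percentage of regions against the distance in kb (log scale) from the region's centre to the nearest gene boundary, for protein-coding genes (left) and genes of any biotype (right). The line of lost regions outside genes (n = 218) lies to the left of that of gained regions outside genes (n = 475) over most of the range, with medians of 41313 and 113335 bp on the left.

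The gene nearest to a member was protein-coding for 87 members (39.9%), a long non-coding RNA gene for 62 (28.4%), a pseudogene for 52 (23.9%) and of another biotype for 17 (7.80%). For gained regions outside genes a pseudogene was nearest for 173 (36.4%) and a protein-coding gene for 143 (30.1%). Strand was known for the nearest protein-coding gene of 176 members, and 85 of these (48.3%, interval 41.0% to 55.6%) lay on its 5′ side. Among those within 10 kb, 19 of 35 (54.3%) lay on the 5′ side. The stretch between the neighbouring protein-coding genes was 304852 bp at the median for members and 602051 bp for gained regions outside genes.

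The members closest to a protein-coding gene were few and lay beside genes of varied function. Adprh, which encodes the hydrolase that removes ADP-ribose from arginine, had the closest member, chr16:38445055-38445428, at 158 bp, and another, chr16:38443503-38444503, at 1396 bp. Ccnb1ip1 followed at 194 bp on its 5′ side, as shown by its promoter above. Spink1, a pancreatic trypsin inhibitor, was 339 bp from chr18:43737418-43737734. Hspd1, the mitochondrial HSP60, was 830 bp from chr1:55076840-55077166 on its 3′ side, and Hspa8, the constitutive HSC70, was 1590 bp from chr9:40806325-40807259. The rest of the 10 were Pglyrp3, a peptidoglycan recognition protein, at 1171 bp, Bmp4 at 1203 bp, Mplkip at 1389 bp on its 3′ side and Fbxo7, an F-box protein, at 1395 bp on its 5′ side.

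At the other end, 12 members (5.50%) lay over 1000 kb from any protein-coding gene, as did 27 gained regions outside genes (5.68%). The farthest was chr18:27685050-27685373, 1930691 bp from Celf4, which encodes an RNA-binding protein of neurons. Next came chr5:79213756-79214154, 1805130 bp from Adgrl3, an adhesion receptor, then chr5:60042706-60043108 at 1765936 bp from G6pd2 and chr5:55791734-55792538 at 1671079 bp from Stim2, a calcium sensor. The fifth was chr1:148481083-148481923, 1348115 bp from Pla2g4a, a phospholipase.

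Some members came in small groups. With gaps of up to 10 kb chained, 17 members (7.80%, interval 4.93% to 12.1%) fell into 8 groups, 7 of 2 regions and 1 of 3, and each group held members alone. The share of gained regions outside genes with another gained region within 10 kb was 7.58% (5.52% to 10.3%). At 1 kb or less, 6 members (2.75%) and 30 gained regions (6.32%) had such a neighbour. The Zfp42, Myc and Adprh pairs described above are 3 of the 8 groups.

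The group of 3 lay on chromosome 2 from 98662221 to 98667348, in 5128 bp, with widths of 808, 355 and 1117 bp and a smallest gap of 1004 bp. It is far from protein-coding genes, between Lrrc4c and Iftap, and the member at its right end was 1035118 bp from Lrrc4c and 2893989 bp from Iftap. This interval held 4 members in all, more than any other of the 195 intervals between protein-coding genes that held one. The treatment of reads that match several places in the genome is not given in the sources used here. Whether such reads make up this group was not tested. The closest pair of all lay between Ell2, an elongation factor of RNA polymerase II, and Glrx, glutaredoxin, on chromosome 13 from 75793946 to 75794604, with a gap of 58 bp. Near Car10 on chromosome 11, a pair of 729 and 981 bp spanned 6862 bp from 93608647 to 93615508. The pair near Trpc6, a cation channel, on chromosome 9 ran from 8459043 to 8463516, and the pair between Zfp64 and Tshz2 on chromosome 2 from 169288937 to 169293770.

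**Figure D3:**
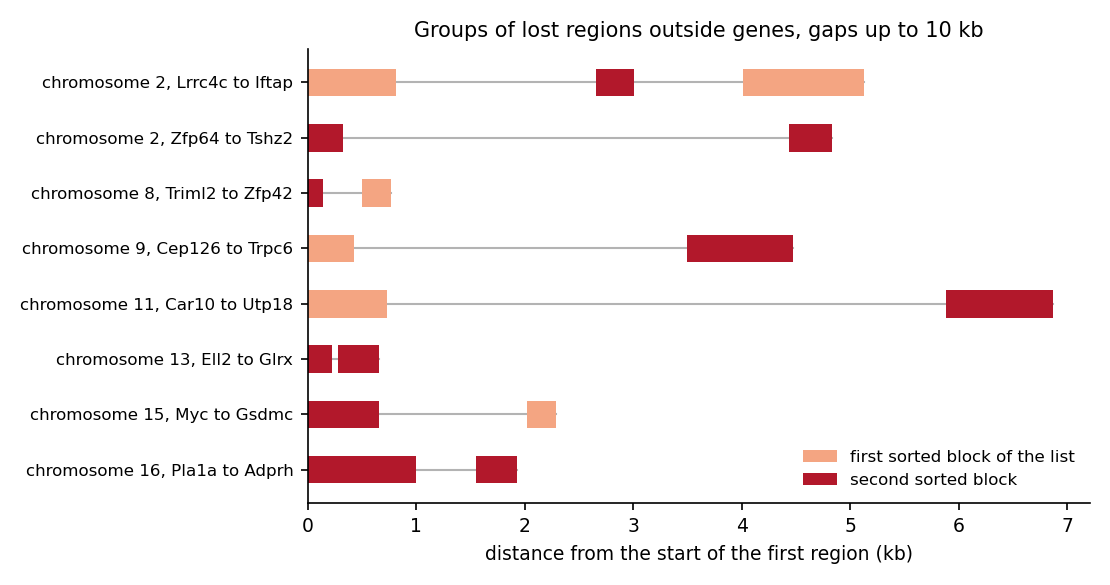
The 8 groups of lost regions outside genes whose gaps are at most 10 kb, drawn to scale in kb from the start of the first region of each group and named by the neighbouring protein-coding genes. Bars are regions, light in the first and dark in the second sorted block of the deposited list. One group holds 3 regions and the other 7 hold 2.

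With gaps of up to 100 kb, 31 members fell into 18 groups with 41 lost regions in all, and 8 of these groups held members alone. The Myc pair then gained a further lost region inside a gene, making 3 regions in 69395 bp, and the member at Lncenc1 joined another member and a lost region inside a gene in 155798 bp. Of the 195 intervals, 21 (10.8%) held 2 or more members. Gained regions outside genes shared 25 of the intervals (12.8%).

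Gained regions were near few lost regions, whether members or not, and these counts do not set members apart. Within 10 kb of a gained region there were 0 of 218 members (Wilson upper limit 1.73%) and 0 of 236 lost regions inside genes (1.6%). Within 100 kb there were 7 members (3.21%, interval 1.56% to 6.48%) and 8 lost regions inside genes (3.39%, 1.73% to 6.55%). For members the nearest gained region was 1643146.5 bp away at the median. The smallest gap was 17267 bp, from chr13:113569598-113569970, which lay 22395 bp from Snx18, a sorting nexin. Among protein-coding genes, Snx18 and Gtdc1, a glycosyltransferase-like gene, had both a member and a gained region outside genes beside them within 100 kb. These 2 genes are 0.948% of the 211 genes with a member beside them and 0.645% of the 310 with a gained region, against 1.42% and 0.964% of all protein-coding genes in the same order, and the difference was not tested. The pair of members around Pramel6 had a gained region 79825 and 93491 bp away.

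The widths of members overlapped those of the regions inside genes in both lists. The median was 441 bp (95% interval of the median 415 to 470 bp, n = 218) for members, 434.5 bp (403 to 463 bp, n = 236) for lost regions inside genes and 444 bp (389 to 482 bp, n = 259) for gained regions inside genes. Gained regions outside genes were the narrower part, with a median of 332 bp (305 to 349 bp, n = 475). The quartiles of the members were 327 and 621 bp. Only 7 members (3.21%) were narrower than 200 bp, against 72 gained regions outside genes (15.2%). The narrowest, of 112 and 129 bp, were the 2 members on chromosome Y. Their nearest protein-coding genes were Gm20844 at 146568 bp and Gm21409 at 26418 bp, in the same order. Widths over 1000 bp were found for 9 members (4.13%) and 7 lost regions inside genes (2.97%), against 48 gained regions outside genes (10.1%) and 36 inside genes (13.9%).

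All 3 lost regions over 4 kb are members, and no other region of either list is as wide. They made up 14540 of the 119102 bp that members cover (12.2%). The widest, chr17:39842988-39848839 of 5852 bp, had its centre 441 bp outside Rn18s-rs5, a pseudogene named for 18S ribosomal RNA, and held all 1849 bp of it together with 728 bp of the long non-coding RNA gene AY036118. Esp38, a pheromone peptide gene, was the nearest protein-coding gene at 104607 bp. The region chr1:24611527-24616200 of 4674 bp had its centre 108 bp outside Gm10925, a pseudogene with the synonym of the mitochondrial ATP synthase gene mt-Atp6, and held all 681 bp of it and all 297 bp of the pseudogene Gm10222. It lay between Col19a1 at 25941 bp and Lmbrd1 at 63129 bp. The third, chr14:19415701-19419714 of 4014 bp, overlapped no annotated gene and lay 12615 bp from the pseudogene Gm9637. How reads that match several places in the genome were treated is not given in the sources used here.

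The other 6 members over 1000 bp were much narrower, from 1001 to 1330 bp. They lay beside Pglyrp3 (1330 bp), near the pseudogene Rpl21-ps14 (1157 bp, chr8:4933845-4935001), in the chromosome 2 group between Lrrc4c and Iftap (1117 bp), 2189 bp from the ribosomal protein gene Rps23 on its 3′ side (1059 bp, chr13:90926392-90927450), near Hao1 (1012 bp, chr2:134455641-134456652) and at Adprh (1001 bp).

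**Figure D4:**
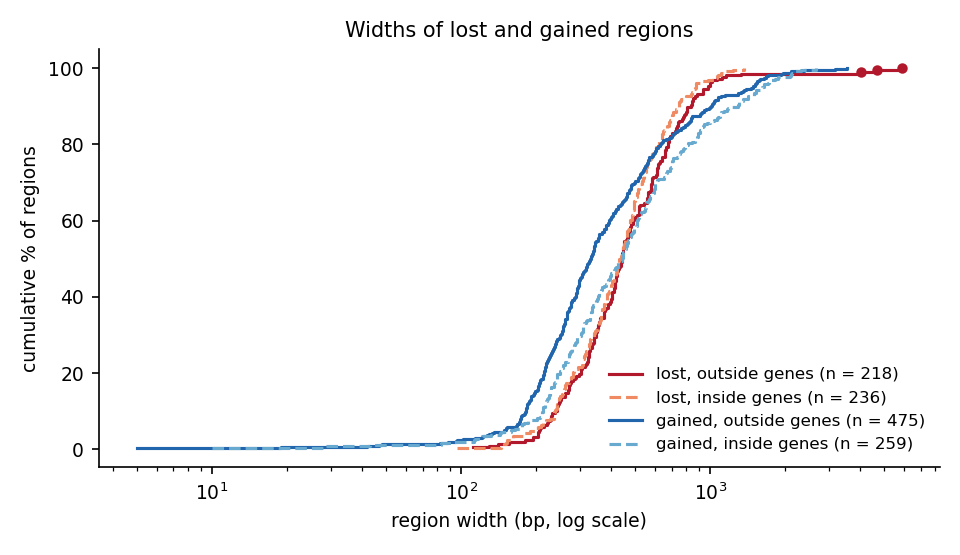
Cumulative percentage of regions against width in bp (log scale) for lost and gained regions outside and inside genes. The 3 dots are the members over 4 kb, of 4014, 4674 and 5852 bp, and the line of gained regions outside genes rises first, with a median of 332 bp.

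Members were spread over all 21 chromosomes. Per 10 Mb of sequence outside genes there were 1.5 members and 3.26 gained regions outside genes over the whole genome. Chromosome 2 held most, 28 members (12.8%), or 3.35 per 10 Mb, and chromosome 13 came next in density with 17 members at 2.68 per 10 Mb. Chromosome 13 was the only chromosome where members were denser than gained regions outside genes, at 2.05 per 10 Mb. Chromosome 3 leaned the other way, with 12 members (1.27 per 10 Mb) and 49 gained regions (5.17 per 10 Mb). The sex chromosomes held few members, 4 on chromosome X (0.342 per 10 Mb) and 2 on chromosome Y (0.228 per 10 Mb), while chromosome X held 34 gained regions (2.91 per 10 Mb).

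**Figure D5:**
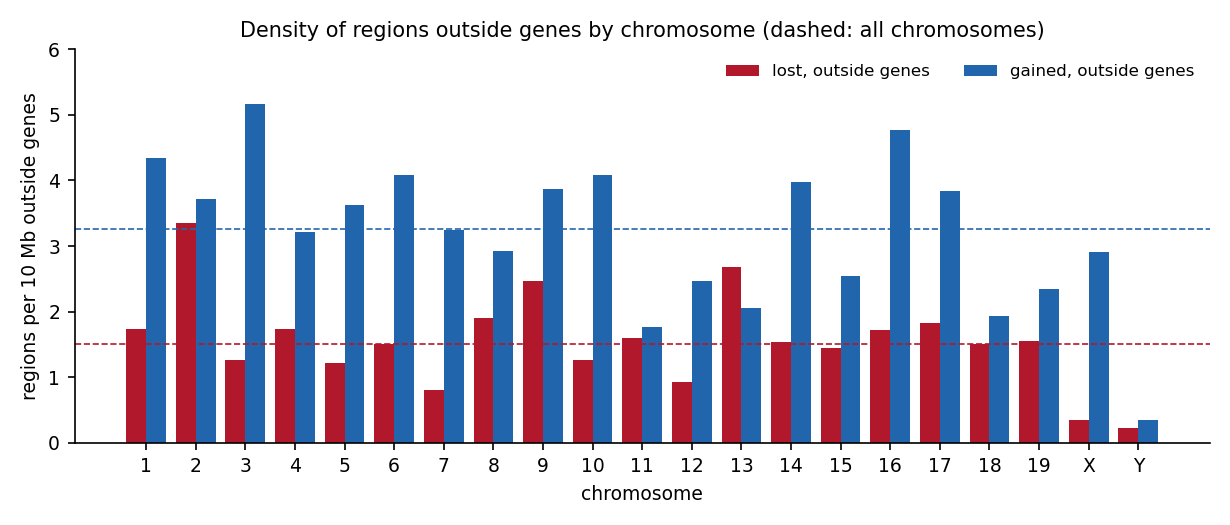
Lost (red) and gained (blue) regions outside genes per 10 Mb of sequence outside genes on each chromosome. Dashed lines are the values over all chromosomes, 1.5 for lost and 3.26 for gained regions, and chromosome 13 is the only one where the red bar is the taller.

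The rule turns on the position of the centre, and 8 members had it within 500 bp outside a gene. They lay at Gm42308 (37 bp), Gm33596 (52 bp), Gm10925 (108 bp), Adprh (158 bp), Ccnb1ip1 (194 bp), Spink1 (339 bp), the pseudogene Gm25424 (391 bp) and Rn18s-rs5 (441 bp). Just inside a gene, and so not members, were 6 lost regions, at Rerg (14 bp), Gm52561 (18 bp), Gm36196 (19 bp), Gm46358 (213 bp), Gm35333 (324 bp) and Gm39447 (385 bp). In all, 6 members overlapped a gene with part of their length.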

How the data were processed

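The lists of regions gained and of regions lost after cycloheximide in ATAC-seq, were used; the authors deposited start and end positions in bp, with no score and no value for a library. Per the submitters' processing notes, Bowtie2 2.2.4 and SAMtools were used and the builds mm10, mm9 and GRCm38 are named, with no role for each; the peak caller, differential test and threshold are not given in the sources used here. Positions were read as GRCm38 and are 1-based. On this reading 0 regions lay past the last gene of a chromosome, a check that cannot by itself settle the build. The 6 H4K16ac and input libraries were not analysed here.

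Members are lost regions whose centre lies in none of 49943 RefSeq gene spans (GRCm38.p6; 21887 protein-coding) on 21 chromosomes. Distances run from the centre to a gene boundary. A gene beside a member is the nearest protein-coding gene to its left or right within 100 kb. Strand came from the RefSeq promoter table, which covers 17492 of the protein-coding genes; promoters on chromosome 18 were not analysed here. In that table, 1839 of 1839 overlapping windows of opposite strand matched as reverse complements. Gaps between regions run from edge to edge. Medians carry order-statistic 95% intervals and shares Wilson intervals. Motif searches were exact on both strands, except that the POU5F1-SOX2 composite allowed 2 mismatches. GC content and motifs of the regions themselves, also planned, were not analysed here, since no genome sequence was used. The position functions were checked on constructed examples. Computation used Python 3.11.15, pandas 2.3.3, numpy 2.4.6, scipy 1.17.1 and matplotlib 3.10.9.

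Members and gene lists were chosen with earlier results of these data known. Regions named are those beside a listed gene, the 10 closest to and 5 farthest from a protein-coding gene, groups of 3 or more, members over 1000 bp and the narrowest, and those within 500 bp of the rule's limit; the pairs and other regions were picked with their values in view. The lists covered 53 pluripotency genes, 14 of LIF and STAT3, 20 of FGF and ERK, 26 of WNT, 24 of NODAL and BMP, 35 lineage regulators, 20 immediate early genes and 27 chromatin remodelers and acetyltransferases.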

Additional observations from a re-analysis of the deposited data

How the results depend on the processing

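Of 17 recomputed values for 5 results, 14 stayed close to the reported value. Close means that a share or median stayed within its 95% interval or a count of members stayed within 1.5 times. Several of the 14 could hardly have moved. Some left 212 or 209 of the 218 members in place, so that a median could shift little. The 9 members beside a pluripotency gene all lay within 50 kb, which fixed the count for that window. Counting neighbouring members once gave 7 of these, close by the 1.5 times rule. Counting protein-coding spans alone put 57.7% of lost regions outside genes, in place of 48.0%, since fewer spans are counted. Measured to the boundary of any gene, the median distance was 12573 bp in place of 41313 bp, since more genes are counted. Leaving out the 6 genes named in earlier results, an alternative chosen after seeing the data, left 4 members beside a pluripotency gene in place of 9. Among the 4 is the member between Dppa4 and Dppa2, although Dppa2 was left out. The deposited list runs in 2 sorted blocks whose meaning is not known, and the first alone gave 51.0% outside genes and a median width of 441 bp. GC content and the octamer share of members were not run, as a genome sequence was not used here. No paired analysis was possible because the lists hold no value for a library. Depth is unknown, so that a region near the authors' threshold counts as much as one far past it.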
